A study of Mus musculus with 199 samples.

Results

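KP1 cells, a mouse small-cell lung cancer line, were compared between 2 settings: colonies growing in the livers of nude mice, and spheroids grown in culture. The comparison took every library labelled as a nude liver colony 10-cell sample, 33 in all, and every library labelled as a KP1 spheroid 10-cell sample, 28 in all, so 61 of the 199 libraries of the series. Both groups carry the genotype Rb1-/-Trp53-/-, that is, homozygous loss of both tumour suppressors, so the spheroids are no wild-type control. Each library was made from 10 cells cut by laser from 8 µm cryosections, with no treatment named. Nude mice lack a thymus and therefore mature T cells, and keep B cells, natural killer cells and macrophages. The labels do not give the age or number of the mice, how the colonies were seeded, or which capture came from which mouse, culture or day. Some captures may therefore share an animal or a culture, and the p-values below, which treat captures as independent, would then be too small. KP1 is 1 line, so nothing here speaks for other tumours.

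Small-cell lung cancer is a neuroendocrine carcinoma that lacks Rb1 and Trp53 function, divides fast and spreads to the liver early. Cholesterol and unsaturated fatty acids are made in the cytoplasm and endoplasmic reticulum by enzymes whose genes are switched on together by sterol regulatory element-binding proteins when membranes run short of sterol. Genes of mitosis are likewise switched on together before division, through promoter elements bound by the NF-Y and DREAM/MuvB complexes. The liver is a source of very abundant secreted protein transcripts, such as albumin, made mainly by hepatocytes, and its sinusoids hold blood and a special endothelium. A capture from a colony can thus hold tumour transcripts and transcripts of neighbouring cells. Below, 19 lists of tumour-cell programmes are described apart from 10 lists that mark host cells or sex chromosomes.

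Gene totals were 718149 to 4239749 counts in liver captures and 3775173 to 5308745 in spheroid captures. ERCC spike-in RNA made up 0.288% to 31.8% of all counts in liver captures and 8.39e-05% to 1.36% in spheroid captures. Where the same amount is added to each library, its share rises as cellular RNA falls. The spike-in share therefore moved with the groups, as did 11 predicted genes in satellite repeat regions of chromosomes 2 and 9, whose summed level was 3.37 to 4267 CPM (each gene's counts scaled to a common total of gene counts) with a median of 232 in liver captures and 0 to 19.4 CPM with a median of 0.419 in spheroid captures. Among spheroid captures the spike-in share also went with the capture number: those numbered 11 to 19 held 0.200% to 1.36%, and all others at most 0.0152%. Spheroid pools 9 to 14 held 1.20% to 1.78%, and the other spheroid pools at most 0.0353%. The labels name no batch, and whether the amount added was the same was not tested. The part that RNA yield plays in the results was not tested, and fits that bear on the satellite level are given below. The deletions could not be checked from these tables: Rb1 reads 0, 13.2 and 178 CPM in liver captures and 2.50, 19.4 and 85.1 CPM in spheroid captures as lowest, median and highest, and Trp53 0, 2.11 and 73.2 CPM in liver captures and 0, 2.00 and 66.6 CPM in spheroid captures. Reads of these genes may lie outside the deleted parts, so their presence checks nothing, and neither level passed the threshold of edgeR's quasi-likelihood test (adjusted p = 0.66 and 0.22).

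Of 7834 genes with enough counts to test, 2669 (34.1%) passed an adjusted p of 0.05 in edgeR's quasi-likelihood test with Benjamini-Hochberg adjustment. In liver captures 1390 (17.7%) were higher and 1279 (16.3%) lower. Over all tested genes the median difference was -0.04 on the log2 scale. All fold changes and adjusted p-values below come from this test over all 7834 genes unless another fit is named, and log2 fold changes are liver over spheroid. A gene near 0 in spheroid captures passed the count filter mainly through the liver captures and could hardly be called lower, and the reverse holds for genes near 0 in liver captures. Since a capture is a small bulk sample, fewer cells of a type and less RNA per cell cannot be told apart. The comparison was also made in pools, 35 from nude liver and 20 from spheroids. These are 10-cell equivalents split from pooled cells, so they are not independent captures and their p-values speak for the pools made. They were not uniform: red blood cell genes took 0.0176% to 0.936% of gene counts and spike-in 1.75% to 31.2% of all counts in the nude liver pools. They gave 1323 higher (16.5%) and 731 lower (9.13%) genes, 25.6% of 8010 tested. With the hepatocyte percent, the share of gene counts in both hepatocyte lists, as a covariate, 1003 genes were higher (12.8%) and 718 lower (9.17%), 22.0% in all. With the hepatocyte log level, the mean log2(CPM + 1) of the hepatocyte secreted protein genes, 761 were higher (9.71%) and 446 lower (5.69%), 15.4% in all. With the satellite level as a covariate, chosen after seeing the data, 68 were higher (0.868%) and 33 lower (0.421%), 1.29% in all. Since that level nearly separates the groups, it and the growth setting cannot be told apart in this fit. The same holds for both hepatocyte covariates. The log level was 0.473 to 5.85 in liver captures and 0.0835 to 0.522 in spheroid captures. The percent was 0.0236% to 0.936% and 0.000612% to 0.0334%. A call lost with any of these covariates therefore does not tell host or satellite reads from the growth setting. Over all tested genes the median log2 fold change was 0.16 in the pools and 0.12 with the satellite level. It was 0.04 with the hepatocyte percent and -0.04 with the hepatocyte log level. For each gene described in full, the levels are given as the lowest, the median and the highest CPM in each group.

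**Figure D1:**
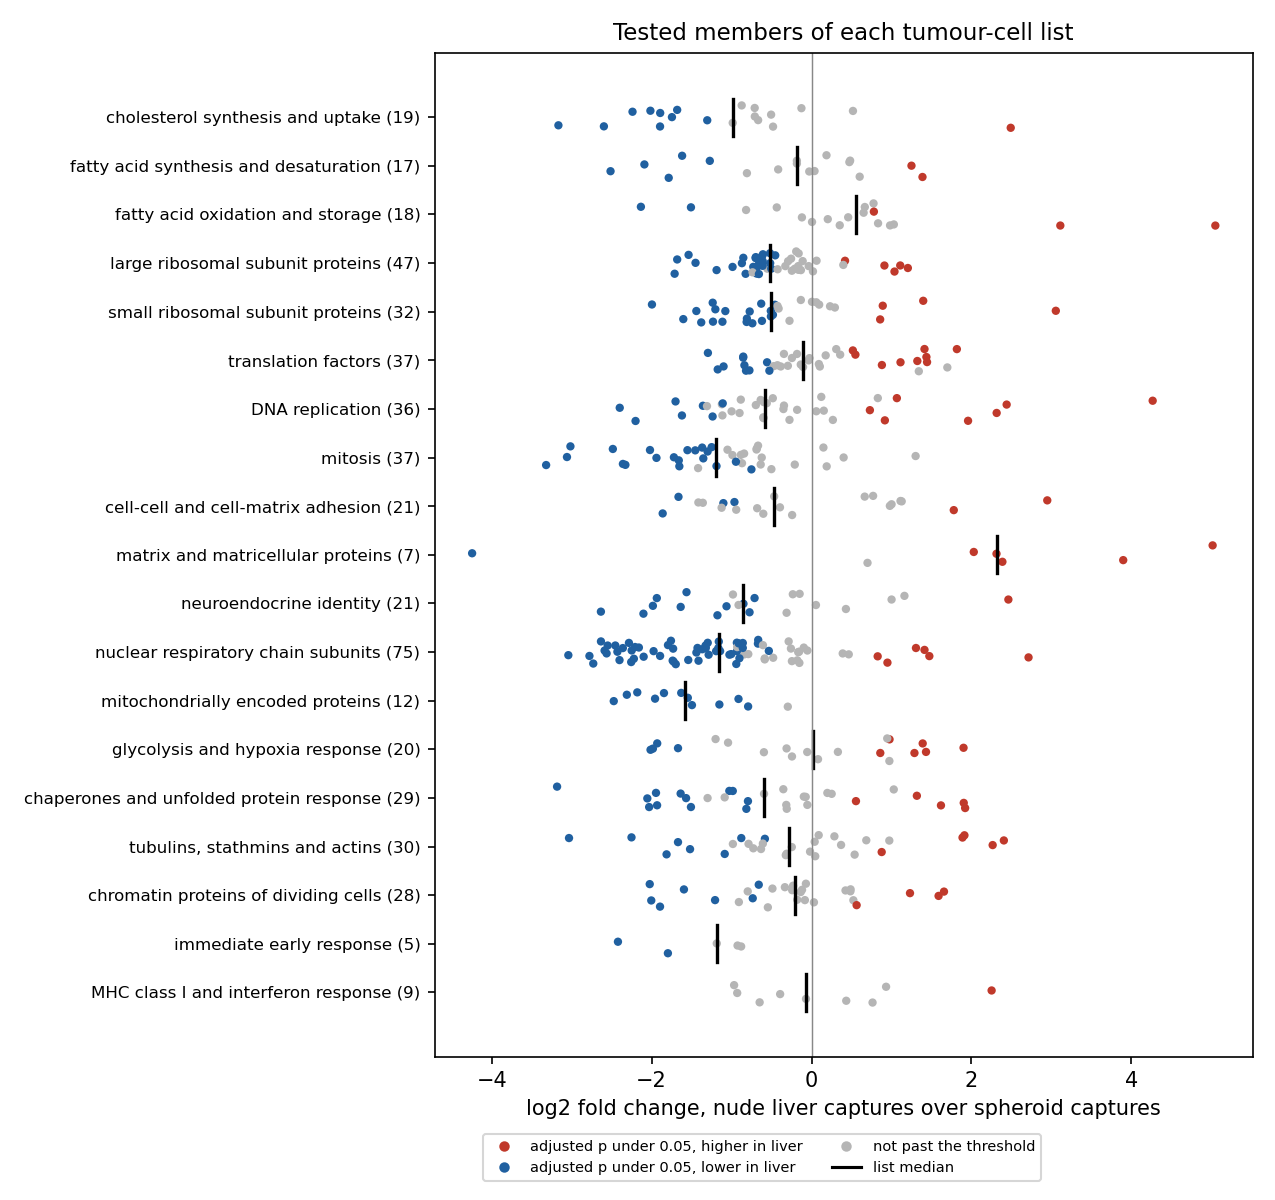
Each point is 1 tested gene, placed by its log2 fold change of nude liver captures (n = 33) over spheroid captures (n = 28), with the number of tested members in brackets; colours mark genes past an adjusted p of 0.05 and black bars mark list medians. The lists of mitosis (median -1.19), nuclear respiratory chain subunits (-1.16) and mitochondrially encoded proteins (-1.59) lie mostly left of 0, while glycolysis (0.01) and MHC class I (-0.07) straddle it.

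Among cholesterol synthesis and uptake genes more were lower than higher in liver colonies. Of the 25 list members 19 were tested, and 9 of them were lower and 1 higher, with a median log2 fold change of -0.99 against -0.04 for all tested genes. The summed level of the list was 178, 700.4 and 2076 CPM in liver captures and 866, 1380.0 and 2766 CPM in spheroid captures, again as lowest, median and highest. Most liver captures thus lay under the spheroid median, with overlap at the edges. Fdps, farnesyl diphosphate synthase of the mevalonate pathway, stood at 0, 72.8 and 659.5 CPM in liver captures and 179.8, 321 and 875 CPM in spheroid captures (log2 fold change -2.02, SE 0.45, adjusted p = 0.00024). In 28 of 33 liver captures Fdps was below the lowest spheroid capture, and 4 liver captures had no read of it. Hmgcs1, which makes the HMG-CoA that enters the pathway, stood at 0, 2.29 and 44.9 CPM in liver captures and 3.56, 27.1 and 216 CPM in spheroid captures (log2 fold change -2.60, SE 0.56, adjusted p = 0.00015). It was low in most liver captures and below every spheroid capture in 19. Sqle, squalene epoxidase, stood at 0, 66.1 and 503 CPM in liver captures and 76.4, 235 and 612 CPM in spheroid captures (log2 fold change -1.68, SE 0.39, adjusted p = 0.00037), and 17 liver captures fell under the spheroid range. Among members named after their values were seen, Srebf2, the transcription factor that drives the pathway, was lower as well (-1.89, adjusted p = 0.012). Nsdhl, a sterol dehydrogenase, was detected in 11 of 33 liver and 24 of 28 spheroid captures (-3.17, adjusted p = 0.001).

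Acat2, the acetyl-CoA acetyltransferase that feeds the pathway and the most abundant member without a call, had medians of 87.7 against 123 CPM (-0.51, adjusted p = 0.26). With the hepatocyte log level as a covariate no member of the list was called (median -1.31), and with the satellite level none either (median -0.81). With the hepatocyte percent 4 were lower and 0 higher (median -1.16). Each of these covariates nearly separates the groups, so the lost calls cannot be told from the growth setting.

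Fatty acid genes did not move together. Of 17 tested synthesis and desaturation genes 5 were lower and 2 higher, with a median of -0.18. Over all tested genes 16.3% were lower and 17.7% higher. Scd2, the stearoyl-CoA desaturase of non-hepatic tissue, stood at 15.9, 137 and 489.8 CPM in liver captures and 278, 809 and 1821 CPM in spheroid captures. All 33 liver captures lay under the spheroid median and 30 under the lowest spheroid capture (log2 fold change -2.51, SE 0.22, adjusted p = 2.5e-15). It was also lower in the pools (-2.90, edgeR adjusted p = 1.5e-10) and remained called with satellite level as a covariate (-2.64). Fads1, a desaturase of polyunsaturated fatty acids, had medians of 21 against 128 CPM (-1.79, adjusted p = 0.0023) and Tecr, the last enzyme of the elongation cycle, of 87.8 against 261 CPM (-1.27, adjusted p = 0.0053). The direction of Tecr turned with satellite level as a covariate (0.52), without a call (edgeR adjusted p = 0.78).

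Both enzymes that build the carbon chain were higher. Fasn, fatty acid synthase, stood at 68.7, 546 and 1815 CPM in liver captures and 20.2, 218 and 554 CPM in spheroid captures (log2 fold change 1.39, SE 0.23, adjusted p = 1.5e-06). It exceeded every spheroid capture in 16 of 33 liver captures. Acaca, acetyl-CoA carboxylase, had medians of 46.7 against 16.9 CPM (1.25, adjusted p = 0.0092), but the pools gave 0.48 with an edgeR adjusted p of 0.49. Acly, ATP citrate lyase, was not called (111 against 66 CPM; 0.48, adjusted p = 0.21).

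Of 18 tested oxidation and storage genes 3 were higher and 2 lower, with a median of 0.56. These shares are near or under the 17.7% and 16.3% of all tested genes. Acads, the short-chain acyl-CoA dehydrogenase of mitochondrial oxidation, stood at 4.15, 68.3 and 338 CPM in liver captures and 0, 3.04 and 56.1 CPM in spheroid captures (log2 fold change 3.11, SE 0.56, adjusted p = 7.1e-06). Every liver capture was above the spheroid median and 18 above the spheroid maximum. Plin3, a coat protein of lipid droplets, stood at 0.860, 6.70 and 407 CPM in liver captures and 0, 0.635 and 4.31 CPM in spheroid captures (log2 fold change 5.05, SE 0.70, adjusted p = 1.6e-08), and 21 liver captures were above the spheroid range; with satellite level as a covariate its log2 fold change was 0.03. Fabp5, a fatty acid carrier, stood at 77.6, 586 and 1813 CPM in liver captures and 677, 1437 and 2786 CPM in spheroid captures (log2 fold change -1.51, SE 0.21, adjusted p = 2.1e-08), below every spheroid capture in 23 liver captures. The electron transfer flavoproteins that take electrons from fatty acid oxidation split, with Etfa at -2.13, adjusted p = 0.00024 and Etfb at 0.78, adjusted p = 0.035. Etfa turned to 0.68 in the pools (edgeR adjusted p = 0.65), and Etfb turned to -0.27 with the hepatocyte level and -0.13 with the satellite level as a covariate. Acaa2, a thiolase of the same pathway, was not called (1.03, adjusted p = 0.084). Dbi, the acyl-CoA-binding protein and no list member, was among the 10 lower genes with the smallest adjusted p outside all lists, with medians of 92.6 against 810.0 CPM (-2.96, adjusted p = 1.2e-09).

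**Figure D2:**
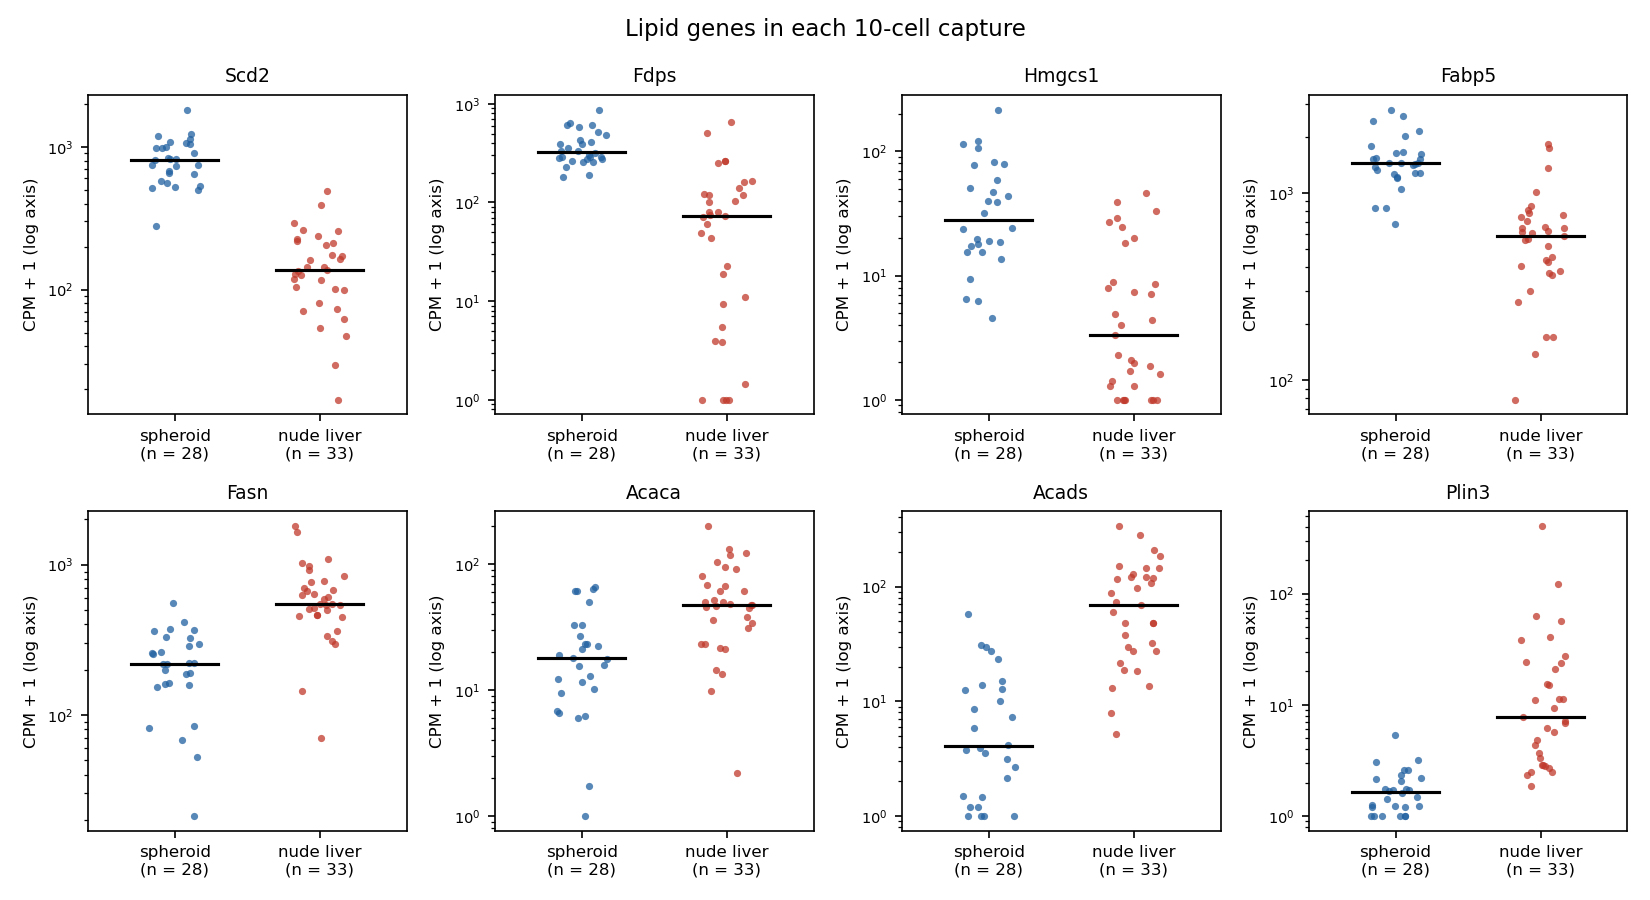
CPM + 1 on a log axis for 8 lipid genes; each point is 1 capture of 10 cells (28 spheroid, 33 nude liver) and bars are group medians. For Scd2 and Fdps 30 and 28 liver captures lie under the whole spheroid range, while Acads and Plin3 exceed the spheroid range in 18 and 21 liver captures.

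Many mitotic genes were lower in liver captures and none was higher. Of 38 members 37 were tested and 20 were lower, with a median of -1.19. The summed level of the list was 592, 3001 and 4752 CPM in liver captures and 2371, 5246 and 9572 CPM in spheroid captures. The upper liver captures overlapped the lower spheroid captures. Cks2, a small subunit that binds cyclin-dependent kinases, stood at 0, 46.8 and 450.3 CPM in liver captures and 3.83, 378 and 1018 CPM in spheroid captures (log2 fold change -3.02, SE 0.44, adjusted p = 6.3e-08). All but 1 of the liver captures were under the spheroid median of Cks2. Kif20a, a kinesin of the central spindle, stood at 0, 7.85 and 95.3 CPM in liver captures and 10.4, 91.3 and 288 CPM in spheroid captures (log2 fold change -3.32, SE 0.49, adjusted p = 9.3e-08), and 17 liver captures were under every spheroid capture. Bub3, a spindle checkpoint protein, had medians of 86.8 against 291 CPM (-1.94, adjusted p = 6.6e-06). Among members named after their values were seen, Cdk1, the kinase that starts mitosis, had medians of 15.5 against 107 CPM (-2.49, adjusted p = 3.1e-05) and Ccnb2, a cyclin partner of it, 24 against 183 CPM (-2.36, adjusted p = 6.2e-05). Cdc20, the activator of the anaphase-promoting complex, had medians of 83 against 252 CPM (-1.55, adjusted p = 0.004), and Mki67, the Ki-67 antigen, 479 against 554 CPM (-0.75, adjusted p = 0.012). Cenpa, the centromeric histone and the most abundant member without a call, stood at 146 against 168 CPM (0.15, adjusted p = 0.76). Against the 9 spheroid captures of at least 0.1% spike-in 7 of 38 tested members were lower and 2 higher (median -1.02), where 7.31% of all tested genes were lower. Against the 19 under 0.1%, 19 of 37 were lower and 0 higher (median -1.11), where 12.7% were lower. In the pools 9 of 36 tested members were lower and 1 higher with a median of -1.31, and 6 of the 19 calls from the captures that could be tested there were called again. The lower count was 14 with the hepatocyte percent (median -1.10), 5 with the hepatocyte log level (median -1.41) and 0 with the satellite level (median -0.58) as a covariate.

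The promoters of the mitotic genes are shown because 20 of 37 tested members were lower and many hold the same short elements. Promoter windows run from 250 bases before to 50 bases after the RefSeq gene start on GRCm38.p6, and 32 of the 38 mitotic members had one. On either strand, TTTGAA, the core of the cell cycle homology region, was in 24 of 32 (75%) of them, against 20.2% of 27025 promoters of all genes. The NF-Y box CCAAT was in 26 of 32 (81.3%), against 41.1% of all. Of the 17 lower members with a window, 13 held TTTGAA and 14 CCAAT. In the following stretches, written 5′ to 3′ on the gene's strand and ending at the base before the start, capitals mark CCAAT or its reverse complement ATTGG, and TTTGAA.
Cdc20, chr4:118437344-118437416, reverse strand: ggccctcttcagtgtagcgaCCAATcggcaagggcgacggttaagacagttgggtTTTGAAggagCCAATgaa
Cks2, chr13:51645147-51645231, forward strand: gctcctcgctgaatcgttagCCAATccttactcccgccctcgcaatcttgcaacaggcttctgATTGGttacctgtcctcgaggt
Cdk1, chr10:69352913-69353140, reverse strand: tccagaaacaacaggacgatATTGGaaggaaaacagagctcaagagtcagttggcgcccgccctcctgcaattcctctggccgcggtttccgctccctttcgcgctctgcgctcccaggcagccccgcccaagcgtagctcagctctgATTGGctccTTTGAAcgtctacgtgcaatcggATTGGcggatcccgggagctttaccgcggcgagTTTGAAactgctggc
Cdc20 and Cdk1 hold both elements close to the start, and Cks2 holds 2 NF-Y boxes and no TTTGAA in this stretch. A match of letters is a description, and no binding was measured here.

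Of 36 tested DNA replication genes 7 were lower and 7 higher, shares near the 16.3% and 17.7% of all tested genes, with a median of -0.58. The median was -0.21 with the hepatocyte percent as a covariate and turned to 0.21 with the satellite level, where 2 were higher and 0 lower. All tested genes had a median of 0.12 in that satellite fit. Pcna, the sliding clamp of DNA polymerase, stood at 0, 71.3 and 214 CPM in liver captures and 161, 290.4 and 667 CPM in spheroid captures (log2 fold change -2.40, SE 0.34, adjusted p = 4.5e-08). In 29 liver captures Pcna was below the lowest spheroid capture. Dut, which removes dUTP, and Rrm1, the large subunit of ribonucleotide reductase, were lower too (-1.70, adjusted p = 9.1e-06, and -1.62, adjusted p = 5e-05). In contrast Rfc2, a subunit of the clamp loader, stood at 152, 903 and 3502 CPM in liver captures and 0.235, 175 and 464 CPM in spheroid captures (log2 fold change 2.32, SE 0.28, adjusted p = 6.7e-10). It exceeded the whole spheroid range in 31 of 33 liver captures. Ung, uracil-DNA glycosylase, was detected in 26 of 33 liver and 8 of 28 spheroid captures (4.27, adjusted p = 0.00012), and Lig1, the ligase of Okazaki fragments, was higher as well (1.07, adjusted p = 0.00016). Mcm6, a helicase subunit and the most abundant member without a call, had medians of 539 against 584 CPM (-0.34, adjusted p = 0.23). E2F sites, searched as TTTCCCGC, TTTGGCGC, TTTGCCGC and TTTCGCGC on both strands, were in 11 of 28 replication promoters (39.3%) against 2.60% of all promoters, and in 1 of the 7 promoters of lower members.

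The cholesterol promoters differed in their elements: CCAAT was in 16 of 17 (94.1%) and in all 5 lower members with a window, while TTTGAA was in 1 of 17. The sterol element TCACNCCAC was in 1 of 17, Hmgcs1, against 1.44% of all promoters. These stretches are shown because both genes were lower, with capitals marking CCAAT or ATTGG and the sterol element.
Hmgcs1, chr13:119690101-119690330, forward strand: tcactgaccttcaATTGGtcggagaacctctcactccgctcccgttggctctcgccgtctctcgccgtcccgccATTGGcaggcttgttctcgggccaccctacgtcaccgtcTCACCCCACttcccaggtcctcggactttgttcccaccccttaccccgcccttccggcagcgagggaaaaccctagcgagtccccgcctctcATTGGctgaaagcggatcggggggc
Nsdhl, chrX:72918392-72918520, forward strand: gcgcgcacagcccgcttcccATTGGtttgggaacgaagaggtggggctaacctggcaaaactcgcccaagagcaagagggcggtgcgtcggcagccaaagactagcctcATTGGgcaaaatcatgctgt
The Hmgcs1 stretch ends 21 bases before the start and holds 1 sterol element among 3 NF-Y boxes. The Nsdhl stretch ends at the base before the start and holds 2 NF-Y boxes.

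Ribosomal protein genes, which encode the ribosome's protein part, were split between many moderately lower members and a few clearly higher ones. Of the 47 large-subunit members, all tested, 24 were lower and 5 higher with a median of -0.52, and of the 32 small-subunit members 19 were lower and 4 higher with a median of -0.51. The total share of gene counts in both lists was nevertheless close, at medians of 29.4% in liver and 27.9% in spheroid captures. In that total Rpsa alone took medians of 4.25% in liver and 0.550% in spheroid captures. Rpsa, a small-subunit protein also known as a laminin receptor precursor, stood at 12641, 42521 and 129816 CPM in liver captures and 2431, 5505 and 20560.2 CPM in spheroid captures (log2 fold change 3.06, SE 0.24, adjusted p = 3e-16). It was above every spheroid capture in 30 of 33 liver captures and took a median of 4.25% of liver gene counts. Rps15 (1.40, adjusted p = 4.8e-08) and Rps4x (0.86, adjusted p = 4.5e-07) were higher in the small subunit, and Rpl3 (1.21, adjusted p = 8.9e-10), Rpl8 (1.04, adjusted p = 2.4e-08) and Rpl10a (1.11, adjusted p = 6.2e-08) in the large. Rpl10a exceeded the spheroid range in 30 liver captures. Of the lower ones, Rpl23a stood at 338, 3118 and 4879.8 CPM in liver captures and 1822, 7936 and 12709 CPM in spheroid captures (log2 fold change -1.71, SE 0.18, adjusted p = 6.1e-12). All 33 liver captures lay under the spheroid median of Rpl23a, with overlap below it. Rps23 (-1.44, adjusted p = 2.2e-10), Rps14 (-1.38, adjusted p = 7e-10) and Rpl23 (-1.68, adjusted p = 4.4e-10) were lower by similar amounts. Rplp1 and Rps24 were not called (-0.11, adjusted p = 0.64, and -0.13, adjusted p = 0.5), and their mean CPM, which is not scaled by TMM, was slightly higher in liver captures (8426 against 7793 for Rplp1). With the hepatocyte log level as a covariate 7 large-subunit and 9 small-subunit members were lower, and with the satellite level 0 of either. The balance changed in the pools, where 10 large-subunit members were higher and 8 lower with a median of 0.0067, and 8 small-subunit members were higher and 9 lower. The share of both lists there had medians of 27.5% in liver and 20.2% in spheroid pools, and Rplp1 stood at 0.40 (edgeR adjusted p = 0.048). Many ribosomal protein genes have near-identical processed copies that could take part of their reads; with the named copies added, 52 of 54 kept the sign of the ratio of group means.

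Translation factors showed no common direction, with 9 higher and 10 lower of 37 tested and a median of -0.11. Over all tested genes 17.7% were higher and 16.3% lower. With the hepatocyte percent as a covariate 9 were higher and 3 lower and the median turned to 0.17, and with the hepatocyte log level 3 were higher and 0 lower with a median of 0.25. Eif6, which keeps the large subunit from joining early, stood at 341, 1089 and 1938 CPM in liver captures and 121, 352 and 918 CPM in spheroid captures (log2 fold change 1.44, SE 0.20, adjusted p = 1.2e-08), and 25 liver captures were above the spheroid range. Eef2, the translocase of elongation, had medians of 817 against 350.2 CPM (1.11, adjusted p = 2.6e-05), and Eef1d, an elongation factor exchange subunit, 525 against 147 CPM (1.41, adjusted p = 4.1e-06). Lower members included the initiation factors Eif3k (-1.17, adjusted p = 0.0012), Eif4g2 (-0.78, adjusted p = 0.0035) and Eif1 (-0.56, adjusted p = 0.0052). Eef1a1, the main elongation factor, was not called (-0.34, adjusted p = 0.15) but was lower in the pools (-0.92, edgeR adjusted p = 1.3e-05).

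Most respiratory chain genes, nuclear and mitochondrial, were lower in liver captures. Of 75 tested nuclear-encoded subunits 51 were lower and 6 higher with a median of -1.16, and of 12 tested mitochondrially encoded proteins 11 were lower and none higher with a median of -1.59. The summed level of the nuclear list was 19869, 29109 and 41468 CPM in liver captures and 26768, 55231 and 72246 CPM in spheroid captures. Mitochondrially encoded transcripts took a median of 1.71% of gene counts in liver and 5.36% in spheroid captures. Ndufs5, a subunit of complex I, stood at 163, 1966 and 4609 CPM in liver captures and 3327, 10242 and 16923 CPM in spheroid captures (log2 fold change -2.55, SE 0.20, adjusted p = 6.2e-17). In 30 of 33 liver captures it was below every spheroid capture. Cox6c of complex IV stood at 2.51, 345 and 758 CPM in liver captures and 451, 1484 and 2942 CPM in spheroid captures (log2 fold change -2.45, SE 0.26, adjusted p = 6.8e-12), and Atp5j of ATP synthase at 7.96, 205 and 726 CPM in liver captures and 309, 1361 and 2149 CPM in spheroid captures (log2 fold change -2.73, SE 0.28, adjusted p = 3.2e-12). For both, no liver capture reached the spheroid median. Atpif1, the inhibitor of ATP synthase and outside the lists, and Usmg5, a small ATP synthase-associated protein, were lower as well (-1.96, adjusted p = 9.5e-13, and -2.33, adjusted p = 4.3e-10).

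In the mitochondrial genome, mt-Nd1 of complex I stood at 82, 1281 and 4623 CPM in liver captures and 3266, 6946 and 12574 CPM in spheroid captures (log2 fold change -2.18, SE 0.27, adjusted p = 1.8e-09), and 25 liver captures were under the spheroid range. mt-Nd6 (-2.47, adjusted p = 2.1e-09) and mt-Nd2 (-2.31, adjusted p = 4.6e-09) were lower too, while mt-Nd5 was not called (-0.30, adjusted p = 0.62). All 11 mitochondrially encoded calls were called again in the pools. Higher nuclear subunits included Atp5d (514 against 216 CPM; 1.31, adjusted p = 5.6e-05), which turned to -0.19 with the satellite covariate, and Ndufa10 (220.0 against 54.9 CPM; 1.47, adjusted p = 6.6e-05), and Ndufa2 was not called (0.39, adjusted p = 0.14). Ndufb2, called at 2.72, adjusted p = 0.00049, had almost equal medians of 126 against 123 CPM, and without the liver capture with the most spike-in its log2 fold change was -0.11. With the hepatocyte log level as a covariate 36 nuclear and 7 mitochondrial members were lower, with medians of -1.16 and -1.31. With the satellite level 2 of each were lower, with medians of -0.72 and -0.78.

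**Figure D3:**
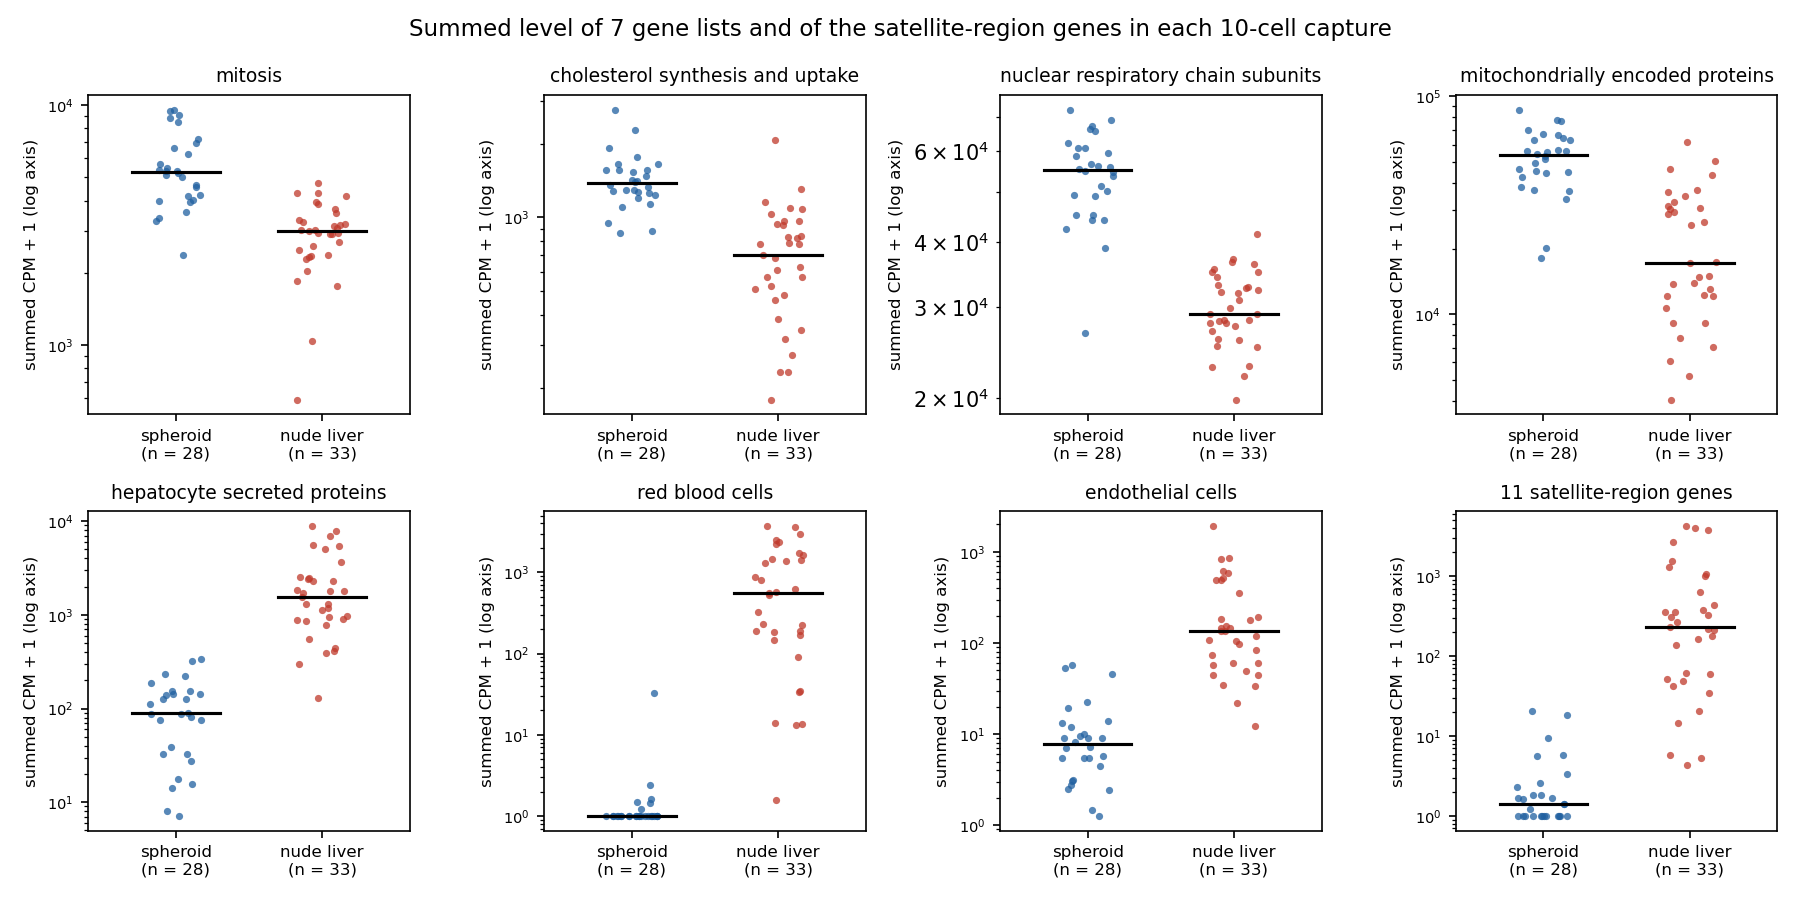
Summed CPM + 1 on a log axis of 7 gene lists and of 11 satellite-region genes, 1 point per capture (28 spheroid, 33 nude liver) with bars at group medians. Mitosis, cholesterol and respiratory sums lie lower in liver captures, with medians of 3001 against 5246 CPM for mitosis, while the hepatocyte, red blood cell, endothelial and satellite sums lie higher.

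Adhesion genes had few tested members: 21 of 48 passed the count filter, and 2 were higher and 4 lower with a median of -0.47, counts near or under the 17.7% and 16.3% of all tested genes. The balance turned to 3 higher and 1 lower with the hepatocyte percent and 3 higher and 0 lower with the hepatocyte log level as a covariate, and with the satellite level 0 were called. Cd9, a tetraspanin of the cell surface, stood at 1.18, 9.34 and 572 CPM in liver captures and 0.811, 3.80 and 107 CPM in spheroid captures (log2 fold change 2.95, SE 0.60, adjusted p = 6.9e-05). The ranges overlapped, with 28 of 33 liver captures above the spheroid median and 3 above the spheroid range. Its direction turned to -1.72 with the satellite covariate, without a call (edgeR adjusted p = 0.26). Lgals1, the secreted lectin galectin-1, stood at 4.18, 211 and 753 CPM in liver captures and 0, 47.7 and 173 CPM in spheroid captures (log2 fold change 1.78, SE 0.42, adjusted p = 0.00045), and 21 liver captures were above the spheroid range. Lower members were Dsp, the desmosome linker desmoplakin (-1.86, adjusted p = 0.012), Ctnnb1, beta-catenin of the adherens junction (-1.10, adjusted p = 0.019), and Cd63, a tetraspanin (-0.96, adjusted p = 0.0071). Tjp1, a tight junction scaffold named after its values were seen, was the fourth (-1.66, adjusted p = 0.021). Dsp turned to 0.30 with the satellite covariate, without a call (edgeR adjusted p = 0.94). Cd24a, a surface glycoprotein, was not called (-0.39, adjusted p = 0.31), and Cdh1, E-cadherin, had reads in 1 liver capture and in no spheroid capture. In the pools the median over 24 tested members was 0.47, opposite in sign, where all tested genes had 0.16. All 6 calls from the captures kept their direction there, and 4 were called again. Against the 9 spheroid captures of at least 0.1% spike-in these 6 also kept their direction, and 0 were called again.

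Among matrix and matricellular genes 7 of 34 were tested, and 5 were higher and 1 lower with a median of 2.31. All 5 higher members had spheroid medians of at most 1.53 CPM and passed the count filter mainly through the liver captures, so the count and median are a description and no support. With either hepatocyte covariate 2 were higher (median 1.05 with the log level), and with the satellite level 1 (median 1.23). In the pools the median over the members tested in the captures was -0.47, opposite in sign, which is the value of the uncalled Agrn. Over the 6 members tested there it was 0.84, with 3 higher and 1 lower. Nov, a secreted protein of the CCN family, stood at 0, 22.3 and 82.2 CPM in liver captures and 117, 335 and 1507 CPM in spheroid captures (log2 fold change -4.25, SE 0.40, adjusted p = 7e-14). It was the single tested gene (0.0128% of all) whose ranges did not overlap, with all 33 liver captures below all 28 spheroid captures, and it was lower in the pools (-4.98, edgeR adjusted p = 1.1e-10). Col4a1, a chain of the collagen of basement membranes, stood at 0, 82.6 and 1007 CPM in liver captures and 0, 0.589 and 30.4 CPM in spheroid captures (log2 fold change 5.02, SE 0.70, adjusted p = 2.5e-08), and 23 liver captures exceeded the spheroid range. Endothelial cells also make it, and the summed endothelial markers were higher too, at medians of 134 against 6.70 CPM; their part in the result was not tested. Fn1, fibronectin, which hepatocytes and fibroblasts also make, stood at 0.716, 15.9 and 2113 CPM in liver captures and 0, 1.53 and 48.1 CPM in spheroid captures (log2 fold change 3.90, SE 0.73, adjusted p = 1.5e-05). Its liver range was wide and 8 captures exceeded the spheroid range. Agrn, the proteoglycan agrin, was higher (2.31, adjusted p = 0.027) but stood at -0.47 in the pools (edgeR adjusted p = 0.73), and Timp2, a protease inhibitor, was not called (0.70, adjusted p = 0.52). Of all 34 members 11 had no read in any spheroid capture, among them the fibrillar collagen gene Col3a1, named after its values were seen, which had reads in 10 liver captures.

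Neuroendocrine identity genes were read in both groups, and more were lower than higher in liver. Of 21 tested members 11 were lower and 1 higher with a median of -0.85. With the hepatocyte log level as a covariate 1 was lower and 2 higher (median -0.52), and with the satellite level 0 were called (median -0.25). Both covariates nearly separate the groups. Calca, which encodes calcitonin and its gene-related peptide, stood at 0, 4.48 and 233 CPM in liver captures and 11.5, 104 and 329 CPM in spheroid captures (log2 fold change -2.63, SE 0.55, adjusted p = 8.1e-05). Uchl1, a neuronal ubiquitin hydrolase, was lower (-0.85, adjusted p = 0.0015). With the satellite covariate it turned to 0.47, without a call (edgeR adjusted p = 0.63). Cplx2, a regulator of vesicle release, was higher in liver at 46.5, 233 and 878 CPM in liver captures and 1.05, 21.2 and 223 CPM in spheroid captures (log2 fold change 2.46, SE 0.40, adjusted p = 9.2e-07), with every liver capture above the spheroid median. Cpe, carboxypeptidase E, did not change past the threshold (0.06, adjusted p = 0.88).

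Of 20 tested glycolysis and hypoxia genes 6 were higher and 4 lower with a median of 0.01. Over all tested genes 17.7% were higher and 16.3% lower. Against the 9 spheroid captures of at least 0.1% spike-in 1 was higher and 4 lower (median -0.49), where 12.1% of 9507 tested genes were higher and 7.31% lower, 19.4% in all. Against the 19 under 0.1%, 5 were higher and 1 lower (median 0.48), where 15.7% of 8340 were higher and 12.7% lower, 28.4% in all. The summed level had medians of 10683 CPM in liver and 6220.0 CPM in spheroid captures. Tpi1, triosephosphate isomerase, stood at 581, 2353 and 4650.0 CPM in liver captures and 96.5, 782 and 2465 CPM in spheroid captures (log2 fold change 1.39, SE 0.19, adjusted p = 1.5e-08), and Pkm, pyruvate kinase (0.86, adjusted p = 3.6e-06), and Eno1, enolase (1.43, adjusted p = 8.1e-05), were higher too. The hypoxia-responsive genes Pdk1, a kinase that shuts pyruvate out of mitochondria, and Bnip3, a mitophagy receptor, were lower (-2.01, adjusted p = 0.01, and -1.67, adjusted p = 0.032), as was Pfkp, a phosphofructokinase (-1.98, adjusted p = 0.0006). Gapdh was not called (-0.05, adjusted p = 0.84). Enolase and Gapdh have processed copies, so their counts are uncertain.

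Of 29 tested chaperone and unfolded protein response genes 12 were lower and 5 higher with a median of -0.59. In the pools 4 were lower and 4 higher (median -0.37), and with the satellite level as a covariate 1 was higher and 0 lower and the median turned to 0.16. All tested genes had a median of 0.12 in that satellite fit. The cytosolic HSP90 genes Hsp90aa1 and Hsp90ab1 were higher, the first at 1104, 2572 and 8813 CPM in liver captures and 145, 694 and 2575 CPM in spheroid captures (log2 fold change 1.92, SE 0.19, adjusted p = 7.7e-13) and the second with medians of 3982 against 1430.5 CPM (1.62, adjusted p = 1.5e-11). All 33 liver captures were above the spheroid median of both. Calr, the endoplasmic reticulum chaperone calreticulin, was higher (1.32, adjusted p = 2.7e-05), while Cct2 of the chaperonin that folds actin and tubulin (-1.95, adjusted p = 5.6e-05), mitochondrial Hspe1 (-1.51, adjusted p = 3e-05; 0.0032 with the satellite covariate) and Atf4, the stress transcription factor (-1.93, adjusted p = 1.7e-06), were lower. Hspa8, the constitutive HSP70, was not called (-0.31, adjusted p = 0.19).

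Of 30 tested cytoskeletal genes 8 were lower and 5 higher with a median of -0.28, beside 16.3% lower and 17.7% higher over all tested genes. Tubb5 and Tuba1a, the main tubulins, were lower, Tubb5 at 236, 1575 and 3401 CPM in liver captures and 2234, 3915 and 5080.0 CPM in spheroid captures (log2 fold change -1.52, SE 0.17, adjusted p = 2.5e-11) and Tuba1a with medians of 950.3 against 2684 CPM (-1.67, adjusted p = 1.2e-09). Actb, beta-actin, stood at 209, 1064 and 3445 CPM in liver captures and 28.6, 238 and 1093 CPM in spheroid captures (log2 fold change 1.89, SE 0.29, adjusted p = 1.6e-07), and Arpc2 of the actin-branching complex (2.41, adjusted p = 2.4e-09) and Tpm3, a tropomyosin (1.91, adjusted p = 3.2e-07), were higher with it. Tmsb10, which sequesters actin monomers, was lower (-1.81, adjusted p = 2.6e-09), and Stmn1, stathmin, was not called (0.04, adjusted p = 0.86).

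Among 28 tested chromatin genes 7 were lower and 4 higher with a median of -0.20, beside 16.3% lower and 17.7% higher over all tested genes. In the pools the median was 0.26, opposite in sign, where all tested genes had 0.16. All 11 calls from the captures kept their direction there, and 6 were called again. H2afz, a histone variant, stood at 36.2, 1194 and 2432 CPM in liver captures and 835, 2906 and 4852 CPM in spheroid captures (log2 fold change -1.60, SE 0.18, adjusted p = 1e-10), and Hmgn2, a nucleosome-binding protein, fell below every spheroid capture in 30 liver captures (-1.21, adjusted p = 5.5e-10). H2afv, a related variant, was lower (-2.00, adjusted p = 5.1e-08), and H2afy, the macroH2A gene, was higher (1.66, adjusted p = 1.4e-07), as were Anp32a (1.59, adjusted p = 0.012) and Ncl, nucleolin (0.56, adjusted p = 0.012). Hmgn1 was not called (-0.07, adjusted p = 0.77). In the immediate early list, which records recent stress or growth signals and handling of tissue, 5 of 24 members were tested and 2 were lower, Btg2 (-2.42, adjusted p = 4.9e-06) and Jun (-1.80, adjusted p = 0.028); Ier5 was not called (-1.19, adjusted p = 0.12). Of 9 tested MHC class I and interferon genes 1 was higher, a share under the 17.7% of all tested genes. It was Tapbp, the peptide-loading chaperone tapasin (26.5 against 2.27 CPM; 2.25, adjusted p = 0.0014), which was not called in the pools (1.02, edgeR adjusted p = 0.2) or with the hepatocyte log or satellite level as a covariate. Psme1, a proteasome activator, was not called (-0.39, adjusted p = 0.4).

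Outside all lists, the 10 higher genes with the smallest adjusted p were of 3 kinds. Predicted genes in repeat-rich regions made up 5: Gm10800, Gm10801, Gm10718 and Gm10719 of the satellite set, and Gm21738. Gm10800 stood at 2.08, 103 and 1854 CPM in liver captures and 0, 0 and 4.76 CPM in spheroid captures (log2 fold change 8.94, SE 0.85, adjusted p = 3.4e-13), and its log2 fold change was 0.70 with the satellite level as a covariate, which contains the gene itself. Pigr, the polymeric immunoglobulin receptor of hepatocytes and other epithelia, stood at 0, 21.1 and 913 CPM in liver captures and 0, 0 and 1.68 CPM in spheroid captures (log2 fold change 9.80, SE 0.91, adjusted p = 7.2e-14), and Clu, the secreted chaperone clusterin, had no read in any spheroid capture and was at least 7923-fold higher in liver, against a floor of 3 counts over the spheroid group. The other three are expressed by the line in bulk: Celsr2, an adhesion receptor of the cadherin superfamily, stood at 1.89, 63.7 and 564 CPM in liver captures and 0, 0.105 and 14 CPM in spheroid captures (log2 fold change 6.98, SE 0.70, adjusted p = 9.4e-13), and 29 liver captures exceeded the spheroid range. Tcof1, a factor of ribosomal RNA synthesis (208 against 3.13 CPM; 5.59, adjusted p = 5.6e-12), and Zbtb12, a zinc finger protein (29.4 against 0 CPM; 7.87, adjusted p = 8.5e-13), behaved alike in that 31 and 29 liver captures lay above every spheroid capture. The bulk KP1 spheroid library held 210.2 CPM of Celsr2, 145 CPM of Tcof1 and 60.8 CPM of Zbtb12, each above the median of the spheroid captures. Celsr2 and Zbtb12 in bulk were also above the liver capture medians of 63.7 and 29.4 CPM, while Tcof1 was under its 208 CPM. The bulk library differs in make-up, with ribosomal proteins at 2.24% of gene counts against a median of 27.9% in spheroid captures. The reason for the gap between bulk and spheroid captures was not tested.

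The 10 lower genes with the smallest adjusted p outside all lists had no common kind. Ppia, cyclophilin A, stood at 153, 1176 and 3076 CPM in liver captures and 1141, 4974 and 8571 CPM in spheroid captures (log2 fold change -2.27, SE 0.20, adjusted p = 1.6e-14), Ubb, a polyubiquitin gene, had medians of 751 against 3071 CPM (-2.22, adjusted p = 7e-14), and Mt1, a metallothionein, had medians of 157 against 990.2 CPM (-2.80, adjusted p = 1.8e-11). Eny2, a subunit of a transcription coactivator (-3.31, adjusted p = 1.8e-11), and Hint1, a nucleotide hydrolase (-2.07, adjusted p = 1.2e-10), were below every spheroid capture in 29 and 28 liver captures. The others were Dbi, Atpif1 and Usmg5, described above, and the predicted genes Gm8797 (-2.62, adjusted p = 6e-17) and Gm20721 (-1.75, adjusted p = 2.8e-12). Ppia has many processed copies in the genome, so its counts are uncertain.

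Transcripts of hepatocytes, red blood cells and endothelium were higher in liver captures. The hepatocyte secreted and metabolic lists together took 0.0236% to 0.936% of gene counts in liver captures, with a median of 0.167%, and 0.000612% to 0.0334% in spheroid captures, with a median of 0.00930%. Of 37 secreted protein genes 11 were tested. Of these 7 had no read in any spheroid capture and Hpx had 8 counts over all of them, so these 8 genes passed the count filter through the liver captures alone and could differ in 1 direction only; their number and the list's median of 10.63 (11.14 with the 7 at their bound) describe the tested members and are no support. Apoa2 and Trf, at a median of 0 in spheroid captures, were called higher, and Rbp4 was not called. Alb, albumin, stood at 0, 274 and 1336 CPM in liver captures, with reads in 32 of 33, and at 0 in all 28 spheroid captures, so it was at least 15341-fold higher (edgeR adjusted p = 2.7e-18). Apoa1, the main protein of high-density lipoprotein, was likewise at 0 in spheroids and at least 3719.8-fold higher, with a liver median of 33.7 CPM. Hpx, the haem carrier hemopexin, stood at 0, 46.3 and 2318 CPM in liver captures and 0, 0 and 1.86 CPM in spheroid captures (edgeR adjusted p = 4e-15). Ttr, transthyretin, was too low to be tested, with reads in 25 liver and 8 spheroid captures. Rbp4, retinol-binding protein, is also expressed by the line, at 102 CPM in bulk, and was not called (-0.71, adjusted p = 0.25). Of 35 metabolic enzymes 1 was tested, Gnmt, glycine N-methyltransferase (24.3 against 0 CPM; 4.36, adjusted p = 1.6e-05). The defining Cps1, Cyp2e1 and Cyp3a11 had reads in 8, 20 and 7 liver captures, none above 35.9 CPM.

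Red blood cell genes took a median of 0.0551% of liver gene counts and 0% of spheroid gene counts. Hbb-bs, a beta-globin, stood at 0, 139.9 and 1706 CPM in liver captures and 0, 0 and 1.40 CPM in spheroid captures (log2 fold change 12.02, SE 0.87, adjusted p = 2.7e-18). The alpha-globins Hba-a1 and Hba-a2 were higher too (8.80, adjusted p = 1e-10, and 9.35, adjusted p = 3.4e-13). Each of these 3 genes had reads in 1 spheroid capture, so they too passed the filter through the liver captures. The alpha-globin copies are near-identical, as are Hbb-bs and Hbb-bt, so their separate counts are uncertain. Hbb-bt had reads in 15 liver captures and no spheroid capture, at least 1227-fold higher. Of platelet and neutrophil markers Pf4 and Ppbp were at 0 in every capture; Gp1bb, a platelet glycoprotein gene that the spheroids also showed, was higher (128 against 37.4 CPM; 1.73, adjusted p = 0.00073), and Itga2b was untested with reads in 17 liver captures.

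Endothelial markers summed to 11.2, 134 and 1935 CPM in liver captures and 0.265, 6.70 and 57 CPM in spheroid captures, and 3 of 18 members were tested and called higher, with a median of 5.17. Pecam1 and Fcgr2b, near 0 in most spheroid captures, passed the count filter mainly through the liver captures, so this count and median describe the tested members and are no support. With the satellite level as a covariate 0 of the 3 were called and the median was 0.83, and in the liver captures low in satellite reads it was 3.04 over 2 tested members. Pecam1, CD31, stood at 0, 5.94 and 49.4 CPM in liver captures and 0, 0 and 2.23 CPM in spheroid captures (log2 fold change 5.17, SE 0.68, adjusted p = 4.5e-09), and 28 liver captures exceeded the spheroid range. Fcgr2b, the Fc receptor of sinusoidal endothelium, stood at 0, 33.1 and 1827 CPM in liver captures and 0, 0.211 and 34.3 CPM in spheroid captures (log2 fold change 7.03, SE 0.94, adjusted p = 8.9e-09), but at -0.22 with the satellite covariate. Its highest level makes up most of the highest endothelial sum. Vwf, von Willebrand factor, was higher (29.3 against 4.07 CPM; 2.59, adjusted p = 1.3e-05). Of the defining markers, Kdr had reads in 26 liver and 5 spheroid captures, and Cdh5 in 1 liver capture.

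Of 17 stellate cell and fibroblast markers 2 were tested: Des, desmin, which KP1 spheroids also expressed, was higher (171 against 55.3 CPM; 1.63, adjusted p = 0.00012), and Reln was not called (0.07, adjusted p = 0.95). Lrat, the retinol-storing enzyme of stellate cells, and Dcn, decorin, had reads in 5 and 11 liver captures. The 22 macrophage genes summed to 0, 92 and 426 CPM in liver captures and 0, 13.6 and 138 CPM in spheroid captures, with overlapping ranges. Of them 1 was tested, Csf1r, which was not called (-0.21, adjusted p = 0.86). Against the 9 spheroid captures of at least 0.1% spike-in 8 were tested and 6 higher, where 12.1% of all tested genes were higher. Against the 19 under 0.1%, 2 were tested and 1 higher, where 15.7% were. Of the 22 genes 20 had no read in any spheroid capture, so most passed the count filter through the liver captures and these counts are no support. Adgre1, the F4/80 antigen, was at 0 in every capture and C1qa had reads in 11 liver captures, none above 13.5 CPM. No T, NK or B cell marker of 20 passed the count filter, and Cd3d, Cd3e and Cd3g had reads in 14, 1 and 1 liver captures, none above 5.57 CPM. Of 11 bile duct markers Krt8, a keratin of simple epithelia, stood at 1.98, 284 and 922 CPM in liver captures and 0, 0.728 and 172 CPM in spheroid captures (log2 fold change 4.35, SE 0.73, adjusted p = 1.9e-06), with every liver capture above the spheroid median. Its partner keratin Krt18 and Krt7 were not called (0.54, adjusted p = 0.16, and -0.97, adjusted p = 0.19), and Krt19, the defining duct keratin, was at 0 in every capture. Of the Y-linked genes, all read in the bulk library of the line, Ddx3y was lower (-0.99, adjusted p = 0.039), Uty and Kdm5d were higher (3.80, adjusted p = 1.6e-07, and 1.22, adjusted p = 0.0079), and Eif2s3y was not called (-0.95, adjusted p = 0.25). The part that host transcripts play in the differences of the tumour lists was not tested, since the covariate fits cannot tell it from the growth setting.

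Of the 1390 genes called higher, 1321 (95.0%) had at least 1 CPM in the bulk KP1 spheroid library, a share near the 98.2% of all tested genes. Of the 69 others, 12 also had reads in at most 2 spheroid captures, and 11 of these 12 belong to the hepatocyte or red blood cell lists: Alb, Apoa1, Apoc1, C3, Ahsg, Ambp, Hpx, Serpina3k, Hbb-bs, Hba-a1 and Hba-a2. The remaining one was Clu.

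In the pools the list medians were -1.0 for cholesterol synthesis, -1.31 for mitosis, -0.75 for nuclear respiratory subunits (29 lower and 5 higher) and -1.65 for mitochondrially encoded proteins. In the 17 liver captures with a satellite level up to the liver median, chosen after seeing the data, 894 genes were higher (10.4%) and 918 lower (10.7%), 21.1% of 8601 tested, and the medians were -1.0 for cholesterol synthesis, -0.89 for mitosis and -1.04 for nuclear respiratory subunits.

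**Figure D4:**
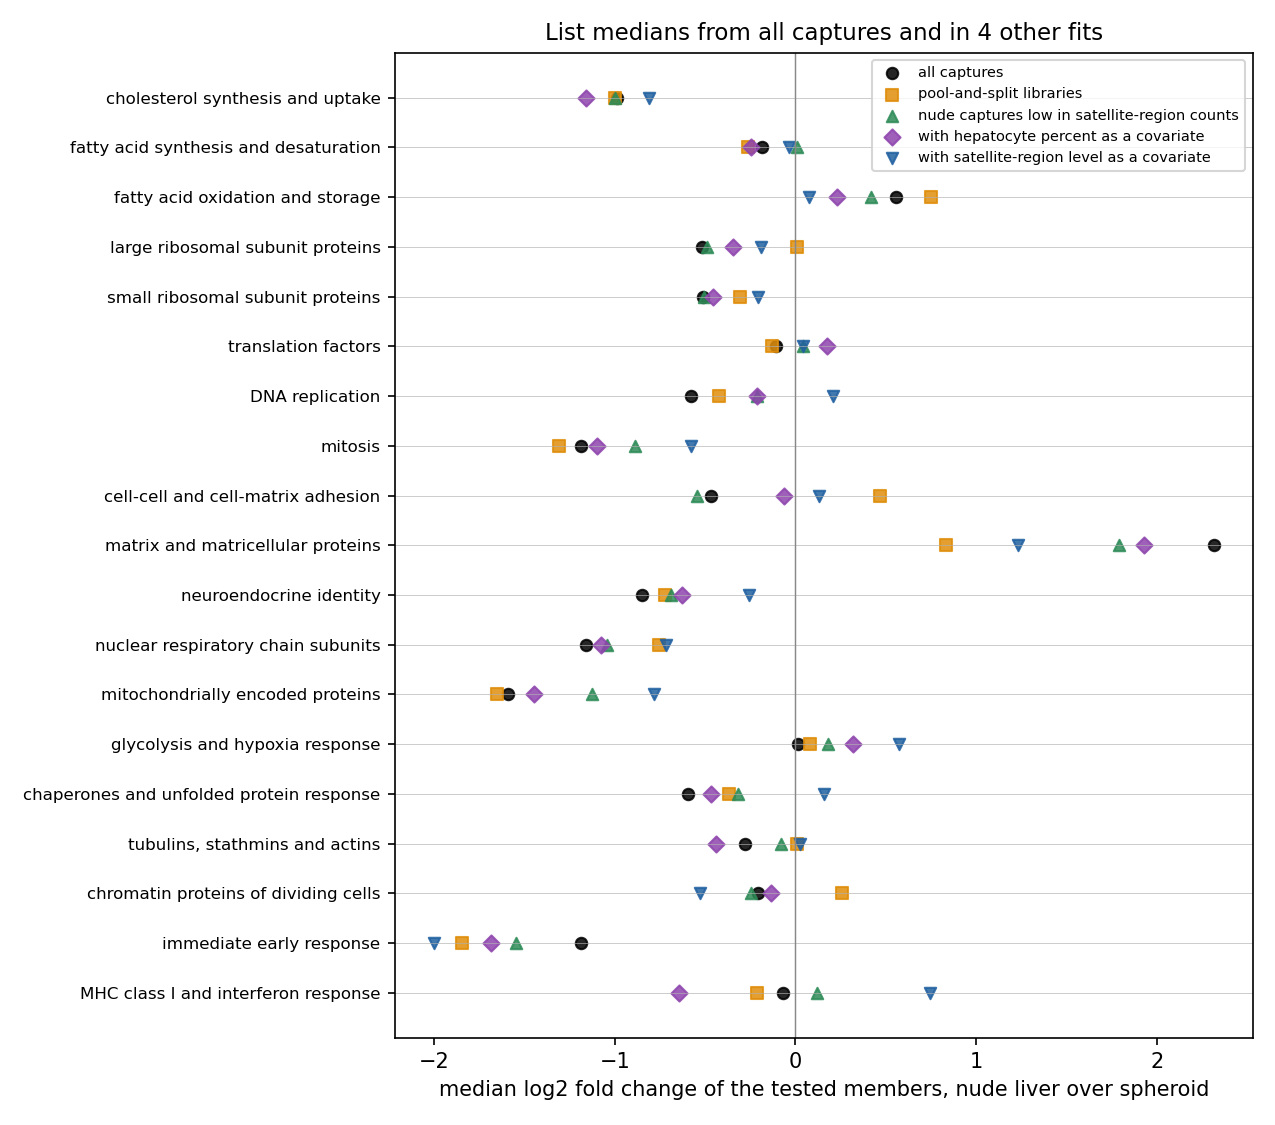
Median log2 fold change of the tested members of 19 lists (x axis) in 5 fits: all captures, pools, the 17 liver captures low in satellite-region counts, and all captures with hepatocyte percent or satellite level as a covariate. The median over all tested genes was 0.16 in the pools and 0.12 with the satellite level. Cholesterol synthesis, mitosis, both respiratory lists, the small ribosomal subunit, neuroendocrine identity and immediate early genes are below 0 in all 5 fits. Other medians move to or past 0, among them large ribosomal subunit, adhesion, chromatin and cytoskeleton in the pools, and adhesion, cytoskeleton, DNA replication, chaperones and translation factors with the satellite covariate, translation factors also with the hepatocyte percent and in the captures low in satellite reads.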

How the data were processed

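Per the labels' protocols, cDNA from the poly(A) RNA of each capture was amplified by poly(A) PCR, and libraries were made with Nextera XT. The authors deposited 1 table of expected counts (estimated reads per gene) for 31581 genes and 92 ERCC transcripts in 199 libraries; 10.7% of its values had decimals. The submitters' processing notes name Bowtie2, RSEM, GRCm38 and GRCh38.p12. Without molecular identifiers, counting bounds cover counting error only.

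Counts were rounded, ERCC transcripts left out of library totals, and captures tested with edgeR 4.0.16 in R 4.3.3 (TMM, filterByExpr, robust quasi-likelihood F test, Benjamini-Hochberg). CPM was computed from gene totals without ERCC. A fold against a group at 0 used a floor of 3 counts over the group. Members, lists and rules were chosen with earlier results of these data known, so lists carry counts and medians and no test, and a planned permutation test of host shares is not reported.

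In each list the text names up to 3 called members per direction with the smallest adjusted p averaging 10 CPM or more in whichever group is higher, and the most abundant uncalled one; outside all lists, the 10 protein-coding genes per direction with a log2 fold change of at least 1 in size; the engineered genes; and the first 3 markers of each host list. Others are marked, and some genes that the rule names are not reported here. On simulated counts for 7636 genes the test recovered 10.4% of 2-fold changes, 44.9% of 4-fold, 93.6% of 8-fold and 98.0% of 16-fold ones, with 0 false calls. The simulation drew captures as independent, changed fewer genes than were called in the data, and held no host or satellite difference. Its recovery and its 0 false calls therefore do not carry over directly to these captures. No 2 captures agreed within sampling noise (lowest chi-square per degree of freedom 74.9). Alternatives covered scaling, filter, tool (DESeq2 1.42.0, limma 3.58.1), depth, spike-in, covariates, pools and a replicate block. Promoters are RefSeq windows on GRCm38.p6.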

Additional observations from a re-analysis of the deposited data

How the results depend on the processing

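Against 2669 genes called, 8431 were called with no low-count filter, 1721 with the hepatocyte percent, 1207 with the hepatocyte log level and 101 with the satellite level as a covariate. Higher calls numbered 5420 with no filter, 907 in liver captures with under 1% spike-in, 894 in those low in satellite reads, 761 with the hepatocyte log level and 68 with the satellite level. Lower calls numbered 3011 with no filter, 2112 by limma-voom, 819 in libraries thinned to one depth, 695 with the 9 spheroid captures of at least 0.1% spike-in, 718 and 446 with the hepatocyte covariates, 33 with the satellite level and 731 in the pools. Some of these fits used fewer libraries or counts by construction; the cause was otherwise not tested.

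List medians that moved by more than the spread of the list's level between liver captures, taken over the members tested with all captures, were these. Under the hepatocyte log level they were 1.05 for matrix, -2.35 for immediate early, 6.45 for hepatocyte secreted and 0.80 for sex-linked genes, and hepatocyte secreted genes stood at 8.77 with the percent and 7.19 by limma-voom. In the pools the large ribosomal subunit stood at 0.0067, matrix at -0.47 (0.84 over the 6 members tested there), red blood cells at 14.21 and sex-linked genes at 0.83. Under the replicate block they were -2.18 for cholesterol, 3.61 for matrix, 7.37 for hepatocyte metabolic and 12.27 for red blood cell genes. With spheroid captures of at least 0.1% spike-in, red blood cells stood at 12.91 and sex-linked genes at 0.88; thinned libraries gave sex-linked genes 1.49. Endothelial genes stood at 2.92 in thinned libraries, 3.30 with liver captures under 1% spike-in, 3.04 in those low in satellite reads and 0.83 with the satellite level.

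Of 126 named called genes, RLE, TMMwsp and totals without host and ribosomal genes kept direction and call for all 126, and the pools for 105. Directions turned with the satellite level for Tecr (0.52), Etfb (-0.13), Cd9 (-1.72), Dsp (0.30), Uchl1 (0.47), Atp5d (-0.19), Hspe1 (0.0032), Fcgr2b (-0.22), Gm10801 (-0.38), Gm10718 (-0.13) and Ndufb2 (-2.54), and that covariate left 25 calls. None of these turned values was called in that fit, where the smallest edgeR adjusted p among them was 0.095, for Ndufb2. Etfb turned with the hepatocyte log level (-0.27), and Etfa (0.68), Rplp1 (0.40) and Agrn (-0.47) in the pools; Rplp1 was not called with all captures. Ndufb2 turned by limma-voom (-0.063), with liver captures under 1% spike-in (-0.67) or low in satellite reads (-0.57), without the liver capture with the most spike-in (-0.11), and over the 27 shared numbers with the block (-0.36) and without it (-0.40). The causes were not tested.

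The capture numbers do not pair samples: over 27 shared numbers, same-numbered captures had a median correlation of 0.00059 (-0.19 to 0.056), and 1 liver capture correlated best with its own number. The replicate block gave 1339 higher and 1398 lower genes, against 1220 and 1159 of 7640 in the same libraries without it.

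Power limits every comparison: 2-fold changes were recovered in 10.4% of simulated cases, in a setting simpler than these data. An uncalled gene is thus not shown to be unchanged. The fits with low satellite level, the satellite covariate and the left-out capture were chosen after seeing the data. Captures without a known animal, 1 line and spike-in, satellite and hepatocyte levels that move with the groups limit every comparison above.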

Other observations

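Fold change went with transcript length across genes. Among 7632 of 7645 tested protein-coding genes with a known length, the 185 genes with a median transcript of up to 500 bases had a median log2 fold change of -0.68, and 38.4% of them were lower in liver captures. The 455 genes over 4000 bases had a median of 0.29, with 9.45% lower and 23.3% higher. Spearman's correlation across genes was 0.127, and genes are not independent replicates. Many ribosomal protein and respiratory chain transcripts are short; the part of length in their medians was not tested.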
